A study of Homo sapiens with 12 samples.

Results

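The genes of glycolysis and of the transcriptional response to low oxygen were followed in A549 monolayers that had been heat shocked, wounded, or both. A549 is an established epithelial line from a human lung adenocarcinoma. The set was a list of 40 gene symbols chosen by function, with earlier results of these data known. It held the hypoxia-inducible factors HIF1A and EPAS1 with prolyl hydroxylases, glucose carriers, the enzymes from hexokinase to lactate dehydrogenase, the regulators of pyruvate entry into mitochondria, and genes known to rise in low oxygen. A value was available for 37 of the 40 members, among 18132 genes in all. The probe sets of the glucose carrier SLC2A3 were shared with SLC2A14, and the lactate exporter SLC16A3 and the carbonic anhydrase CA9 were not analysed here.

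The study compared 4 groups of 3 arrays. Control monolayers were untreated, heat shocked monolayers were heated for 2 h, wounded monolayers carried multiple scratch wounds for 4 h, and the last group was heat shocked for 2 h and then wounded for 4 h. All were cultured on plastic in the same serum-containing medium with added pyruvate, and the labels name no low-oxygen treatment in any group. The labels do not give the temperature, the collection time after heat shock alone, or whether replicate arrays stand for separate cultures, so p-values measure the spread between these samples, which may be partly technical. The group given both treatments had 4 h after its heat shock. In its difference from heat shock alone, wounding therefore cannot be told apart from a difference in that time, and the interaction shares this limit. In bulk RNA a change in the amount of a transcript per cell cannot be told apart from a change in the share of cells that hold it.

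When oxygen is plentiful, prolyl hydroxylases mark the HIF alpha subunits for destruction, and when it falls the subunits persist, pair with ARNT and bind promoters at a short core sequence. Their targets raise glucose uptake, glycolytic flux and lactate production, and restrain the entry of pyruvate into mitochondria. HIF activity is set mainly at the level of the protein, which an RNA array does not measure, and several target genes also answer to other stress, growth factor and heat shock signals.

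Promoters are shown for the 3 called members with the largest differences after both treatments that could be printed, taken by size whatever the direction. They are also shown for the 2 members whose windows held both a HIF core and a heat shock element, because that combination was found in no other member. Each window is 300 bases, from 250 before to 50 after a start of transcription, taken from RefSeq on GRCh38.p14. Capitals mark the HIF core (ACGTG or GCGTG, on either strand) and, in PGK1 and DDIT4, the heat shock element (GAANNTTC or TTCNNGAA). PFKFB4 lies at chr3:48556754-48557053 on the minus strand, BHLHE40 at chr3:4979187-4979486 on the plus strand, the window of PDK1 with the most cores at chr2:172555840-172556139 on the plus strand, PGK1 at chrX:78103998-78104297 on the plus strand, and DDIT4 at chr10:72273674-72273973 on the plus strand.
PFKFB4: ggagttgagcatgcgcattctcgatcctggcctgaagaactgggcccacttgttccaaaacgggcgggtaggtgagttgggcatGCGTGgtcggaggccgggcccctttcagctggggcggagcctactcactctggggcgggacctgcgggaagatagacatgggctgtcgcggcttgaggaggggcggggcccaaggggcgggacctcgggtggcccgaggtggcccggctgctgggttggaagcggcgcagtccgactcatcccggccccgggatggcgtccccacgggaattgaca
BHLHE40: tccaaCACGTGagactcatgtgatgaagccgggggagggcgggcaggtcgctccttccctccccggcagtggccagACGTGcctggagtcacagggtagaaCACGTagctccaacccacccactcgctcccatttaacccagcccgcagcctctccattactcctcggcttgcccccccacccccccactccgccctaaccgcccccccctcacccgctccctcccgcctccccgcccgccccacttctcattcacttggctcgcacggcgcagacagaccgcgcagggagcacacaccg
PDK1: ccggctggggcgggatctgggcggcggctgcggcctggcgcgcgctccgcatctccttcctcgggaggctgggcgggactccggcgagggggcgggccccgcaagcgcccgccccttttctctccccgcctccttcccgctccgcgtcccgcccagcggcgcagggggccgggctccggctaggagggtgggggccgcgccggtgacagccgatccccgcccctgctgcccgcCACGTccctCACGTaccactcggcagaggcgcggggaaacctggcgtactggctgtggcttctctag
PGK1: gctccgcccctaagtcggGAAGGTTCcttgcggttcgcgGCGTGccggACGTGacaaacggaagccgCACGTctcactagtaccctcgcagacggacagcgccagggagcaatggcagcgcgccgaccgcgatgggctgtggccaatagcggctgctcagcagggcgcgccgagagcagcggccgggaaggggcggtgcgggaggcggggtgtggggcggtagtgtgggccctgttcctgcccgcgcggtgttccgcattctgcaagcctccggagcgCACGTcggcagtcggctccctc
DDIT4: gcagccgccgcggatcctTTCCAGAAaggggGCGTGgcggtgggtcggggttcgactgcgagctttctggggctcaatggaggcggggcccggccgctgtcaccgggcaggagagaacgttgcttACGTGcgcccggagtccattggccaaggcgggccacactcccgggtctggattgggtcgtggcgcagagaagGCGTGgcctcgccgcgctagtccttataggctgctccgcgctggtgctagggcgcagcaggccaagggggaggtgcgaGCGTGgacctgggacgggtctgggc
The PFKFB4 window held 1 HIF core, that of PDK1 held 2, and those of BHLHE40, PGK1 and DDIT4 held 4 each, with the palindrome at the start of the BHLHE40 window read on both strands as 2 overlapping matches. The other PDK1 window of the table held none.

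Of the 40 members, 36 had a window in the promoter table. A HIF core stood in at least 1 window of 34 of them (94.4%), against 14318 of all 27305 genes of the table (52.4%). This measure favours genes with several windows, and HK1 and PFKM had 7 each. Of all single windows 48.4% held a core, and the members were not compared per window. The heat shock element was in 2 of 36 members (5.56%) against 16.2% of all genes, and the AP-1 motif TGANTCA in 4 of 36 (11.1%) against 9.37%. Nearly every member in the table held a core, so its presence could not tell apart members that passed the test and members that did not. After both treatments 8 of the 10 members that passed the test were in the table and 8 of these held a core, and of the 27 that did not pass 26 were in the table and 24 held one. A match of these letters is a description of the sequence, not evidence of binding.

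The arrays had similar distributions, with medians over all probe sets between 5.30 and 5.32 on the log2 scale. The interquartile range was 4.13 to 4.24 on 11 arrays and 3.98 on replicate 2 of the group given both treatments. The 8 epithelial markers had a median log2 level of 9.87 in control and spanned 4.76 to 13.83, whereas the 8 endothelial markers had a median of 3.76, the 7 fibroblast markers 3.79 and the 14 leukocyte markers 4.34. None of the endothelial, fibroblast or leukocyte markers passed the test after wounding or after both treatments, and 1 fibroblast marker was lower after heat shock. After both treatments 2 of 8 epithelial markers (25%) and 2 of 9 alveolar type II markers (22.2%) passed, against 23.1% of all genes. In each of these lists 1 was higher and 1 lower. The 9 alveolar type II markers had a median of only 4.78 in control. The epithelial list thus bore out an epithelial identity, without telling lung from other epithelia, and the alveolar type II list did not bear out the lung label. The upper quartile of the endothelial and leukocyte markers together, 4.66 in control, served as an approximate background level, and BHLHE41 was the 1 member under it in every group. The heat shock gene HSPA6 was 55.3-fold higher after heat shock (adjusted p = 6.03e-08, limma). The immediate early gene EGR1 was 7.94-fold higher after wounding (adjusted p = 8.19e-05, limma), or 2.99 on the log2 scale against 1.80 with averaged probe sets. EGR1 was not specific to wounding, since monolayers that were only heated also exceeded control, by 1.03 (adjusted p = 0.0261, limma). That smaller call was lost without control replicate 2 or 3, or heat shocked replicate 1 or 2 (adjusted p 0.0764 to 0.104).

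After both treatments 10 of the 37 members passed the test, which is limma's moderated test at a Benjamini-Hochberg adjusted p under 0.05 over all 18132 genes. PFKFB4, BHLHE40, NDRG1, KDM3A and ANKRD37 were higher than control, and PDK1, ADM, PFKFB2, PDK3 and HIF1A were lower. Among all genes 23.1% passed in that comparison (8.66% higher and 14.4% lower), against 27% of the members, a share near the background. Only PFKFB4 and BHLHE40 differed at least 2-fold. The median difference of the members was -0.05 on the log2 scale and that of all genes -0.01.

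After heat shock alone 5 members passed, 2 higher and 3 lower, or 13.5% of the members against 12.9% of all genes (4.93% higher and 7.92% lower). After wounding alone 4 members passed, all 4 of them higher, or 10.8% of the members against 3.57% of all genes (2.27% higher and 1.31% lower). Between both treatments and heat shock alone 3 members differed, 2 higher and 1 lower with both (8.11% against 4.3% of all genes, of which 2.71% higher and 1.58% lower). In wounded monolayers the preceding heat shock changed 8, 4 in each direction (21.6% against 14.9%, of which 6.31% higher and 8.6% lower). The median differences of the members were -0.04 after heat shock and -0.01 after wounding, against -0.03 for all genes in both. The members showed no common shift in either direction. The count after heat shock was 2 without any one control array and 3 without replicate 1 or 3 of the heat shocked group, and the count of 8 in wounded monolayers was 5 without replicate 1 or 2 of the wounded group or replicate 2 of the group given both. The 3 comparisons with control share their control arrays, so similar differences in them are not independent of each other.

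**Figure D1:**
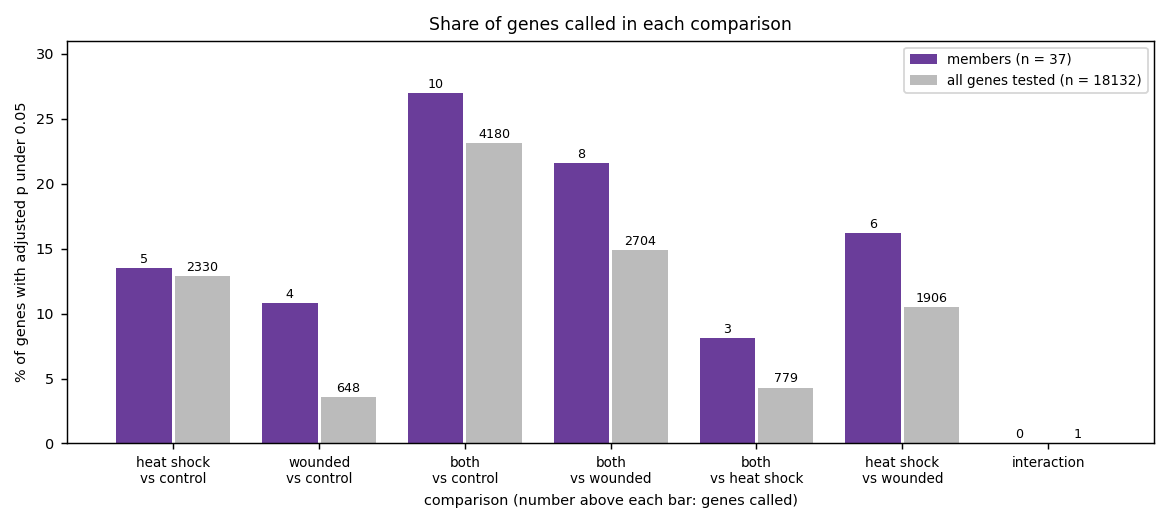
Percentage of the 37 members and of all 18132 genes with an adjusted p under 0.05 in each comparison (bars; the number above each bar is the number of genes). After both treatments 10 members passed, 27% against 23.1% of all genes, and after wounding 4 passed, 10.8% against 3.57%.

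Among the oxygen-sensing genes HIF1A, which encodes the alpha subunit of HIF-1, was lower after both treatments. Its log2 levels were 12.26, 12.20 and 12.33 on the control arrays, 12.09, 12.23 and 12.07 after heat shock, 12.28, 12.29 and 12.15 after wounding and 12, 11.91 and 11.99 after both. All 3 arrays given both treatments were below every other array. The difference from control was -0.29 ± 0.07 (SE; 1.23-fold lower; adjusted p = 0.0078, limma), and against wounded monolayers it was -0.28 ± 0.07 (adjusted p = 0.0182, limma). The call against wounded monolayers was lost when replicate 1 or 2 of the wounded group or replicate 2 of the group given both was left out (adjusted p 0.0625 to 0.0743) and with only these 2 groups in the fit (0.0538). After heat shock alone the difference was -0.13 ± 0.07 (adjusted p = 0.279, limma) and after wounding alone -0.02 ± 0.07 (adjusted p = 0.95, limma). The 7 other HIF1A probe sets gave -0.48 to -0.28 for both treatments against wounding, and 5 passed (limma over all probe sets). Against control they gave -0.27 to -0.18 after both (3 passed) and 0.05 to 0.21 after wounding (0 passed). With averaged probe sets, heat shocked monolayers were below wounded ones (-0.25, adjusted p = 0.0395, limma).

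EPAS1, which encodes the alpha subunit of HIF-2, did not pass in any comparison, with a difference of -0.13 ± 0.07 after both treatments (adjusted p = 0.219, limma). EGLN1, the main oxygen-sensing prolyl hydroxylase, had means between 10.80 and 10.93 in the 4 groups and did not pass either. Its 2 other probe sets, at mean levels of 8.68 and 8.70, were higher after heat shock by 0.16 to 0.26, and 1 passed (limma over all probe sets). After both treatments they differed from control by 0.00 to 0.10 and 0 passed. EGLN3, a hydroxylase that is itself a HIF target, had log2 levels of 5.53, 5.64 and 5.63 on the control arrays, 5.32, 5.53 and 5.05 after heat shock, 5.56, 5.89 and 5.43 after wounding and 5.48, 4.96 and 5.19 after both. The group given both treatments was below control on every array but spread widely. Its difference of -0.39 ± 0.15 did not pass (adjusted p = 0.0834, limma), and it passed without replicate 1 of that group (-0.53, adjusted p = 0.0291) and when all probe sets of the gene were averaged (-0.50, adjusted p = 0.00378). The 2 other probe sets of EGLN3, at mean levels of 3.33 and 5.05, were lower after both treatments than in control and passed (limma over all probe sets). They gave -0.71 ± 0.11 (adjusted p = 0.000754) and -0.39. Against wounding they gave -0.64 and -0.44 and passed as well, and 1 of them passed after heat shock alone.

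The glucose carrier SLC2A1 (GLUT1), which brings glucose across the plasma membrane, stood highest in wounded monolayers. On the log2 scale it read 9.92, 9.97 and 9.95 on the control arrays, 9.78, 9.89 and 9.99 after heat shock, 10.15, 10.18 and 10.13 after wounding and 9.98, 10.07 and 10.03 after both. Every wounded array was above every array of the other groups. The difference of heat shocked from wounded monolayers was -0.27 ± 0.06 (1.21-fold; adjusted p = 0.0181, limma). This call was lost without replicate 1 of the heat shocked group or replicate 1 or 2 of the wounded group (adjusted p 0.0604 to 0.0888), with the averaged probe sets (0.0758) and with only these 2 groups in the fit (0.0597). Against control the wounded group did not pass (0.21 ± 0.06, adjusted p = 0.129, limma), nor did heat shock (-0.06 ± 0.06, adjusted p = 0.636) or both (0.08 ± 0.06, adjusted p = 0.428).

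Hexokinases trap glucose in the cell by phosphorylating it. HK2, the hypoxia-inducible form, was dim, with means from 4.86 to 5.19, close to the background level. Through this probe set it did not pass in any comparison (wounded minus control -0.33 ± 0.11, adjusted p = 0.162, limma). After both treatments its difference of -0.24 ± 0.11 passed only without replicate 2 of that group (-0.34, adjusted p = 0.0414). The other HK2 probe set, at a mean level of 4.89, went the other way after both treatments (0.10 against control, not passed). Against wounding it gave 0.28 and passed (limma over all probe sets). HK1, the constitutive form, had means from 9.19 to 9.38 and did not pass, except after both treatments with averaged probe sets (-0.22, adjusted p = 0.0347).

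The widest difference of any member was that of PFKFB4 after both treatments. PFKFB4 is one of the bifunctional enzymes that make and remove fructose 2,6-bisphosphate, the activator of phosphofructokinase, and their balance of kinase to phosphatase activity differs between the forms. PFKFB4 had log2 levels of 5.72, 5.84 and 5.99 on the control arrays, 7.06, 7.07 and 6.70 after heat shock, 6.71, 6.82 and 6.80 after wounding and 7.47, 7.62 and 7.13 after both. Every treated array was above every control array, and all arrays given both treatments were above all arrays given 1. Against control PFKFB4 was 2.13-fold higher after heat shock (1.09 ± 0.13 on the log2 scale, adjusted p = 0.000199, limma), 1.9-fold higher after wounding (0.92 ± 0.13, adjusted p = 0.00157) and 2.94-fold higher after both (1.55 ± 0.13, adjusted p = 4.09e-06).

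Heat shock and wounding did not differ in PFKFB4 beyond the spread (heat shock minus wounded 0.17, 95% interval -0.11 to 0.45). The preceding heat shock added 0.63 ± 0.13 in wounded monolayers (adjusted p = 0.00683, limma). Against heat shock alone both treatments gave 0.46 ± 0.13, which did not pass (adjusted p = 0.0727, limma). It passed without replicate 3 of the group given both (0.60, adjusted p = 0.0185) and in 3 of the other alternatives. The interaction was -0.46 ± 0.18 and did not pass over all genes (adjusted p = 0.632). The 3 other PFKFB4 probe sets lay at mean levels of 2.75 to 4.31, under the background level. Of these, 1 also passed after both treatments (0.42 ± 0.11, adjusted p = 0.0208, limma over all probe sets). With all 4 PFKFB4 probe sets averaged, these dim ones included, the difference from control was 0.65 after both treatments (adjusted p = 0.000119). It was 0.41 after heat shock (adjusted p = 0.00739) and 0.31 after wounding, which no longer passed (adjusted p = 0.0814). The difference between both treatments and wounding was then 0.34 (adjusted p = 0.0185).

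PFKFB2, a form best known from the heart, moved the other way. It was at 7.17, 6.92 and 6.97 on the control arrays, 6.66, 6.80 and 6.31 after heat shock, 6.71, 6.76 and 6.73 after wounding and 6.71, 6.44 and 6.40 after both. All 9 treated arrays lay below the 3 control arrays. The difference passed after both treatments (-0.50 ± 0.12, 1.42-fold lower, adjusted p = 0.00881, limma) and after heat shock (-0.43 ± 0.12, 1.35-fold lower, adjusted p = 0.0339), and not after wounding (-0.29 ± 0.12, adjusted p = 0.317). The call after heat shock was lost without any one control array or without replicate 1 or 3 of the heat shocked group (adjusted p 0.0534 to 0.138), with cyclic loess scaling (0.0564) and with only these 2 groups in the fit (0.0627). Its 5 other probe sets lay at 2.61 to 3.25, under the background level, and with all 6 averaged neither call was kept (adjusted p 0.15 after both and 0.18 after heat shock).

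PFKFB3, the form with the highest kinase activity and a HIF target, was read through a probe set with a high level, and its difference after both treatments did not pass (0.18 ± 0.07, adjusted p = 0.0964, limma). Its arrays given both treatments, between 12.11 and 12.25, did not overlap the control arrays, between 11.98 and 12.05. Its 3 other probe sets, at mean levels of 5.98 to 7.10, were all higher after both treatments and passed, by 0.46 to 0.57 (limma over all probe sets). With its probe sets averaged the difference was 0.41 (adjusted p = 0.000829), and with cyclic loess scaling it was 0.22 (adjusted p = 0.0332). It also passed among genes with a mean above the median (0.0372), with the spread modelled against the level (0.012) and with a block for a sample code in the labels (0.0391). The phosphofructokinase subunits PFKL, PFKM and PFKP, which the PFKFB product activates, did not pass in any comparison. PFKM stood lowest in wounded monolayers, at 8.40 ± 0.09 (SD, n = 3) against 8.63 ± 0.07 in control.

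**Figure D2:**
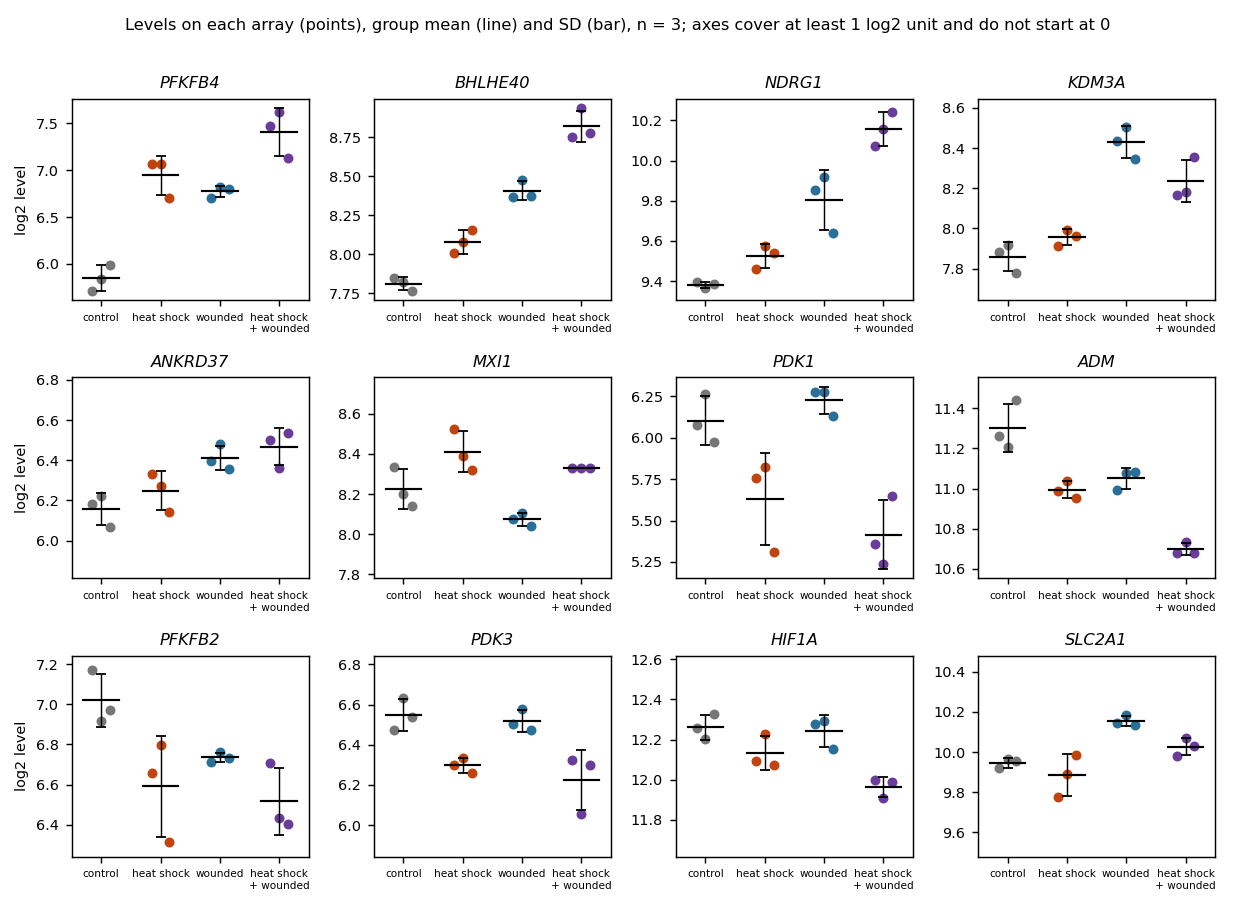
Log2 levels of 12 members on each array (points), with the group mean (line) and SD (bar) for the 4 groups of 3 arrays; axes do not start at 0. PFKFB4, BHLHE40 and NDRG1 are highest after both treatments, and ADM and HIF1A are lowest there.

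The enzymes of the pathway themselves did not pass. None of the 16 genes for the glycolytic steps and lactate dehydrogenase A passed in any of the 7 comparisons. Of these, 10 had mean log2 levels over 10. GAPDH, which oxidises glyceraldehyde 3-phosphate, had log2 levels of 13.51, 13.58 and 13.57 on the control arrays, 13.51, 13.49 and 13.55 after heat shock, 13.51, 13.53 and 13.56 after wounding and 13.49, 13.54 and 13.51 after both. LDHA, which turns pyruvate to lactate, had log2 levels of 13.59, 13.56 and 13.62 on the control arrays, 13.50, 13.51 and 13.60 after heat shock, 13.62, 13.62 and 13.61 after wounding and 13.54, 13.55 and 13.53 after both. The SD over all 12 arrays, whatever their group, was 0.030 for GAPDH and 0.044 for LDHA.

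After both treatments GAPDH differed from control by -0.04 ± 0.05 (95% interval -0.15 to 0.08) and LDHA by -0.05 ± 0.06 (-0.17 to 0.07). The 10 genes with a mean level over 10 differed from control by -0.15 to 0.06 after both treatments, and the 95% intervals of all 10 lay within -0.28 and 0.21. After heat shock alone their differences were -0.12 to 0.03, and after wounding -0.05 to 0.09. The highest level anywhere in the table was 14.13, and the response of probes so near the top of the range may be compressed, which was not tested.

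TPI1 and PGAM1 had the lowest values of this group. TPI1, which interconverts the triose phosphates, had log2 levels of 12.51, 12.50 and 12.52 on the control arrays, 12.35, 12.34 and 12.48 after heat shock, 12.45, 12.45 and 12.51 after wounding and 12.36, 12.37 and 12.34 after both. PGAM1, which moves the phosphate of 3-phosphoglycerate, had log2 levels of 12.64, 12.64 and 12.66 on the control arrays, 12.49, 12.54 and 12.56 after heat shock, 12.65, 12.67 and 12.60 after wounding and 12.51, 12.52 and 12.50 after both. For both genes the arrays given both treatments were all below the control arrays. The differences were -0.15 ± 0.06 for TPI1 (adjusted p = 0.0813, limma) and -0.13 ± 0.05 for PGAM1 (adjusted p = 0.0987). They passed when the spread was modelled against the level (adjusted p = 0.0037 and 0.003) and when dim genes were left out, and TPI1 passed without replicate 3 of the heat shocked group (0.0487). At 1.11-fold and 1.1-fold these were small differences under each setting. ENO2, the neuronal enolase, was higher in heat shocked than in wounded monolayers by 0.27 ± 0.08, which did not pass (adjusted p = 0.0651) except without replicate 2 of the group given both (0.0411) and with dim genes left out.

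**Figure D3:**
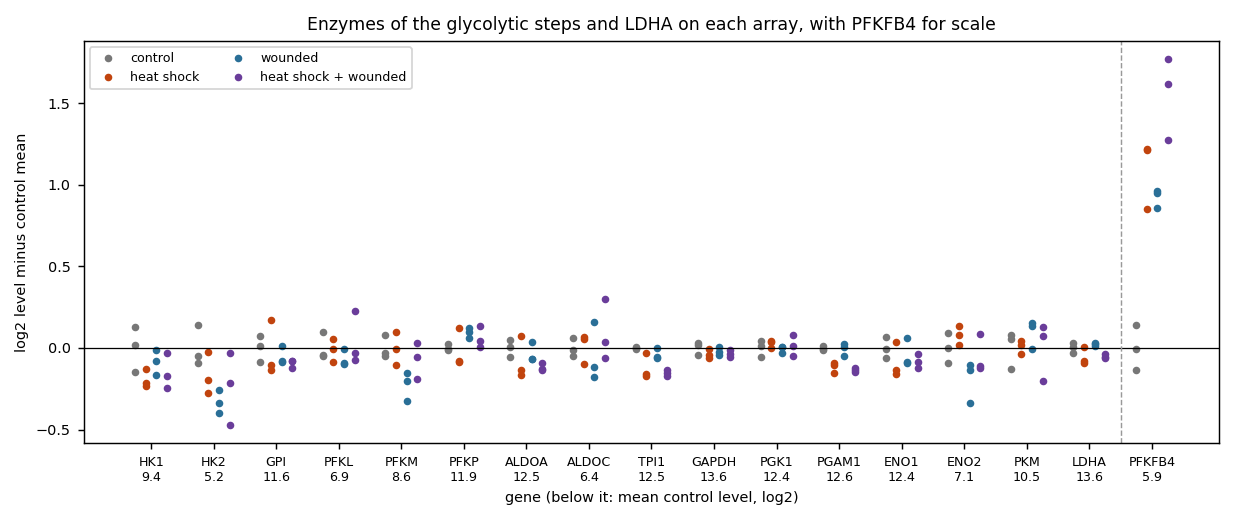
Log2 level minus the control mean on each array (points) for the 16 enzyme genes, with PFKFB4 for scale; the number under each gene is its mean control level (log2). The enzymes lie close to their control means in every group, whereas PFKFB4 is 1.09 above its own with heat shock, 0.92 with wounding and 1.55 with both.

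Pyruvate dehydrogenase kinases switch off the complex that feeds pyruvate to the mitochondria, and PDK1 is a HIF target. PDK1 had log2 levels of 6.08, 6.26 and 5.97 on the control arrays, 5.76, 5.82 and 5.31 after heat shock, 6.27, 6.27 and 6.13 after wounding and 5.36, 5.24 and 5.65 after both. All 6 heat shocked arrays, wounded or not, were below all 6 others. It was 1.61-fold lower after both treatments than in control (-0.69 ± 0.14, adjusted p = 0.00291, limma) and 1.75-fold lower than after wounding alone (-0.81 ± 0.14, adjusted p = 0.00207). Both calls were kept under every alternative in which PDK1 was tested, and with averaged probe sets the difference from control was -0.39 (adjusted p = 0.00683). That average included a probe set at a mean level of 2.83, under the background level.

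After heat shock alone PDK1 was 1.39-fold lower (-0.47 ± 0.14, adjusted p = 0.0401, limma). That call was lost without any one of 9 arrays, the 3 control and 3 wounded arrays, replicates 1 and 3 of the heat shocked group and replicate 1 of the group given both (adjusted p 0.0502 to 0.151), with cyclic loess (0.0594) or repeated quantile scaling (0.05), and with only these 2 groups in the fit (0.0599). The direct difference of heat shocked from wounded monolayers was -0.60 ± 0.14 (adjusted p = 0.015), and was lost without replicate 1 or 2 of the wounded group (adjusted p 0.0566 and 0.0589). Wounding alone gave 0.12 ± 0.14 (adjusted p = 0.807).

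PDK3, a kinase of the same family and also known to be hypoxia-inducible, showed a like order at smaller size. The levels were 6.47, 6.63 and 6.54 on the control arrays, 6.30, 6.33 and 6.26 after heat shock, 6.50, 6.58 and 6.47 after wounding and 6.32, 6.06 and 6.30 after both. The 6 heat shocked arrays were again below the 6 others. It was lower after both treatments than in control (-0.32 ± 0.08, 1.25-fold, adjusted p = 0.0104, limma) and than after wounding (-0.29 ± 0.08, adjusted p = 0.0263). The latter call was lost without replicate 1 or 2 of the wounded group or replicate 2 of the group given both (adjusted p 0.0698 to 0.0919) and with only these 2 groups in the fit (0.0859). After heat shock alone -0.25 ± 0.08 did not pass (adjusted p = 0.0576), and it passed without replicate 2 of the group given both (0.0201). The same array changed the call of the direct difference of heat shocked from wounded monolayers (-0.22 ± 0.08, adjusted p = 0.104, and 0.0404 without it).

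CA12, a carbonic anhydrase that helps export acid, had a mean of 12.08 in control and 11.92 after both treatments. The difference of -0.16 ± 0.06 did not pass (adjusted p = 0.0873, limma), and did pass when dim genes were left out (0.0289 and 0.0424) or the spread was modelled against the level (0.00749). BNIP3 and BNIP3L, receptors that direct mitochondria to autophagy, did not pass against control in any group, and after both treatments each differed from it by -0.12 (SE 0.06 and 0.09). BNIP3L was lower in heat shocked than in wounded monolayers by -0.26 ± 0.09, which passed only without replicate 3 of the wounded group (adjusted p = 0.0433 against 0.0948) and in 3 of the other alternatives.

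**Figure D4:**
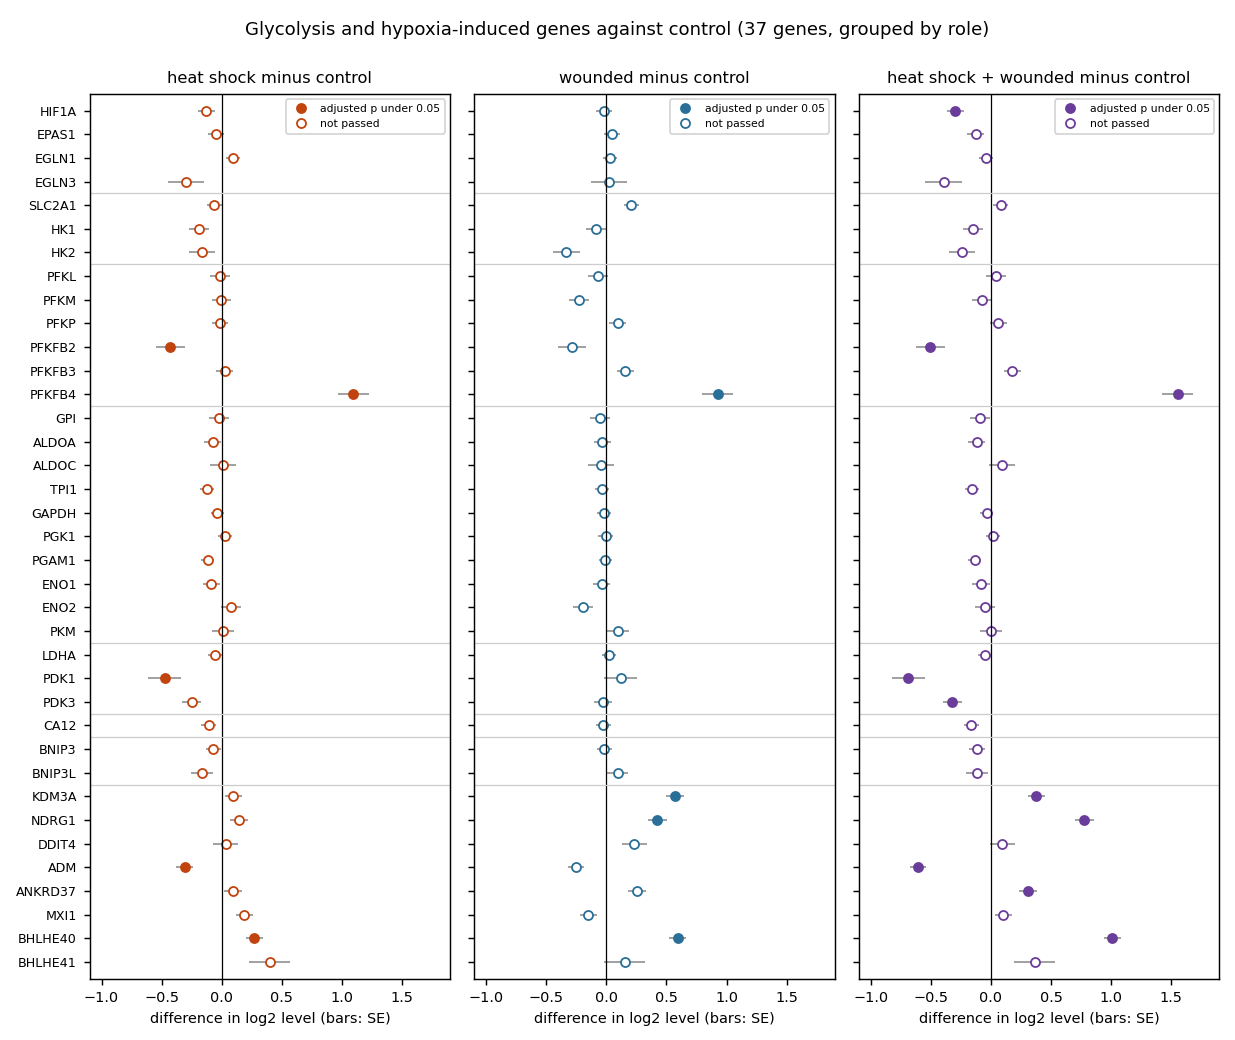
Difference in log2 level from control for the 37 members, grouped by role, in heat shocked, wounded and doubly treated monolayers (points; bars are SE; filled where the adjusted p is under 0.05). The filled points after both treatments are 5 higher and 5 lower genes, and the glycolytic enzymes from GPI to LDHA lie near 0.

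The remaining members are genes that rise in low oxygen but act outside glycolysis, and 5 of these 8 passed after both treatments (62.5%, against 23.1% of all genes). BHLHE40 (DEC1), a transcriptional repressor of the circadian clock and of metabolism, had log2 levels of 7.85, 7.82 and 7.76 on the control arrays, 8.01, 8.08 and 8.16 after heat shock, 8.36, 8.48 and 8.38 after wounding and 8.75, 8.93 and 8.78 after both. The 4 groups did not overlap, in the order control, heat shock, wounding, both. Against control it was 1.2-fold higher after heat shock (0.27 ± 0.07, adjusted p = 0.0244, limma), 1.51-fold higher after wounding (0.59 ± 0.07, adjusted p = 0.000447) and 2.01-fold higher after both (1.01 ± 0.07, adjusted p = 9.65e-07). The rise after heat shock was lost without any one control array or without replicate 2 or 3 of the heat shocked group (adjusted p 0.0562 to 0.0817).

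BHLHE40 was also higher after both treatments than after either one alone. Against heat shock alone, both treatments gave 0.74 ± 0.07 (adjusted p = 9.72e-05, limma). In that difference wounding cannot be told apart from the time after heat shock. The preceding heat shock added 0.42 ± 0.07 in wounded monolayers (adjusted p = 0.00198, limma). Both calls were kept under all 23 alternatives. The interaction was 0.15 ± 0.10 and did not pass (adjusted p = 0.803, 95% interval -0.07 to 0.36). The related repressor BHLHE41 lay under the background level at 3.49 to 3.89 and did not pass, except after heat shock without replicate 3 of that group (adjusted p = 0.038).

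NDRG1, a stress- and differentiation-regulated gene, had log2 levels of 9.40, 9.37 and 9.38 on the control arrays, 9.46, 9.57 and 9.54 after heat shock, 9.86, 9.92 and 9.64 after wounding and 10.07, 10.16 and 10.24 after both. Its groups too did not overlap, in the same order as for BHLHE40. It was 1.34-fold higher after wounding (0.42 ± 0.08, adjusted p = 0.00947, limma) and 1.71-fold higher after both (0.78 ± 0.08, adjusted p = 1.81e-05). After heat shock alone 0.14 ± 0.08 did not pass (adjusted p = 0.293), and its 5 other probe sets gave 0.17 to 0.46, of which 1 passed (limma over all probe sets). The call after wounding was lost without replicate 1 or 2 of the wounded group (adjusted p 0.0568 and 0.0591) and with averaged probe sets (0.0711).

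After both treatments NDRG1 was higher than after heat shock alone by 0.63 ± 0.08 (adjusted p = 0.00053, limma), or 0.40 with averaged probe sets. It was higher than after wounding alone by 0.35 ± 0.08 (adjusted p = 0.00968). The latter was lost with averaged probe sets (0.0542) and with only the 2 groups in the fit (0.0573). All 6 of its probe sets were higher after both treatments than in control and passed, by 0.58 to 0.78. The difference between heat shock and wounding, -0.28 ± 0.08 (adjusted p = 0.0401), was lost without any one of 8 arrays, the 3 control and 3 heat shocked arrays and replicates 1 and 2 of the wounded group (adjusted p 0.0564 to 0.155), with cyclic loess scaling (0.0534) and with only these 2 groups in the fit (0.0895). With averaged probe sets it was -0.09 (adjusted p = 0.693).

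KDM3A, a histone demethylase that needs oxygen and is induced by HIF, followed wounding. The arrays gave 7.88, 7.92 and 7.78 on the control arrays, 7.91, 7.99 and 7.96 after heat shock, 8.44, 8.50 and 8.34 after wounding and 8.17, 8.18 and 8.36 after both (log2). All 6 wounded arrays were above all 6 others. It was 1.48-fold higher after wounding (0.57 ± 0.07, adjusted p = 0.000767, limma) and 1.3-fold higher after both (0.38 ± 0.07, adjusted p = 0.00228), and the difference after heat shock did not pass (0.10 ± 0.07, adjusted p = 0.472). The difference of heat shocked from wounded monolayers was -0.47 ± 0.07 (1.39-fold lower, adjusted p = 0.0012), a call kept under all 23 alternatives.

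Against wounding alone, both treatments gave -0.19 ± 0.07 for KDM3A, which did not pass (adjusted p = 0.0997, limma; 0.0392 without replicate 3 of the group given both). Against heat shock alone, both treatments gave 0.28 ± 0.07, just outside the threshold (adjusted p = 0.0505, limma). KDM3A had the smallest interaction p of the members, with a difference of -0.29 ± 0.10 that did not pass over all genes (adjusted p = 0.608). ANKRD37, a small ankyrin repeat gene known as a HIF-1 target, was higher after both treatments (0.31 ± 0.08, 1.24-fold, adjusted p = 0.00974). Its levels in that group, 6.36 to 6.53, did not overlap the control levels, 6.07 to 6.22. Its only other probe set lay at 2.36 and gave -0.24 ± 0.10, and with both averaged the call was lost (0.04, adjusted p = 0.753).

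ADM, which encodes the vasodilator peptide adrenomedullin and rises in low oxygen in many cell types, fell here. Its log2 levels were 11.26, 11.21 and 11.44 on the control arrays, 10.99, 11.04 and 10.95 after heat shock, 10.99, 11.08 and 11.08 after wounding and 10.68, 10.73 and 10.68 after both. All treated arrays were below all control arrays, and those given both treatments were lowest. It was 1.24-fold lower after heat shock (-0.31 ± 0.07, adjusted p = 0.0111, limma) and 1.52-fold lower after both (-0.61 ± 0.07, adjusted p = 4.88e-05), and both calls were kept under all 23 alternatives. After wounding -0.25 ± 0.07 did not pass (adjusted p = 0.0777), and it passed when dim genes were left out (0.0212 and 0.0352) or the spread was modelled against the level (0.00541).

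In wounded monolayers the preceding heat shock made a further difference of -0.35 ± 0.07 in ADM (adjusted p = 0.0049, limma). Against heat shock alone, both treatments gave -0.30 ± 0.07 (adjusted p = 0.0302, limma). This call was lost without any one of the 6 arrays of these 2 groups (adjusted p 0.0501 to 0.11) or with only these groups in the fit (0.0964). A dimmer ADM probe set was lower after both treatments by a like amount (-0.64 ± 0.12, adjusted p = 0.00198, limma over all probe sets).

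MXI1, an antagonist of MYC, did not pass against control in any group. Its log2 levels were 8.33, 8.20 and 8.14 on the control arrays, 8.52, 8.39 and 8.32 after heat shock, 8.08, 8.11 and 8.04 after wounding and 8.33, 8.33 and 8.33 after both. The wounded arrays were below all others. Heat shocked monolayers were 1.26-fold higher than wounded ones (0.34 ± 0.07, adjusted p = 0.00852, limma), a call kept under all 23 alternatives, and both treatments were higher than wounding alone (0.26 ± 0.07, adjusted p = 0.0289). The latter call was lost without any one of the 6 arrays of these groups (adjusted p 0.0544 to 0.0851) and with averaged probe sets (0.294). DDIT4 (REDD1), an inhibitor of mTORC1 whose promoter window held 4 HIF cores, overlapped between control and every treated group and did not pass, with 0.23 ± 0.10 after wounding (adjusted p = 0.359).

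The difference between heat shock and wounding is taken between those 2 groups, with the spread estimated over all 12 arrays, controls included. In this comparison 6 members passed, 1 higher and 5 lower in heat shocked monolayers, or 16.2% against 10.5% of all genes (4.51% higher and 6.01% lower). MXI1 was higher, and PDK1, KDM3A, BHLHE40, NDRG1 and SLC2A1 were lower. The count was 2 without replicate 2 of the wounded group, 3 without replicate 1 of the heat shocked or of the wounded group, and 8 without replicate 2 of the group given both. BHLHE40 itself, at -0.33 ± 0.07 (adjusted p = 0.0103, limma), was lost without replicate 1 of the heat shocked group or replicate 2 of the wounded group (adjusted p 0.0528 and 0.0502).

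**Figure D5:**
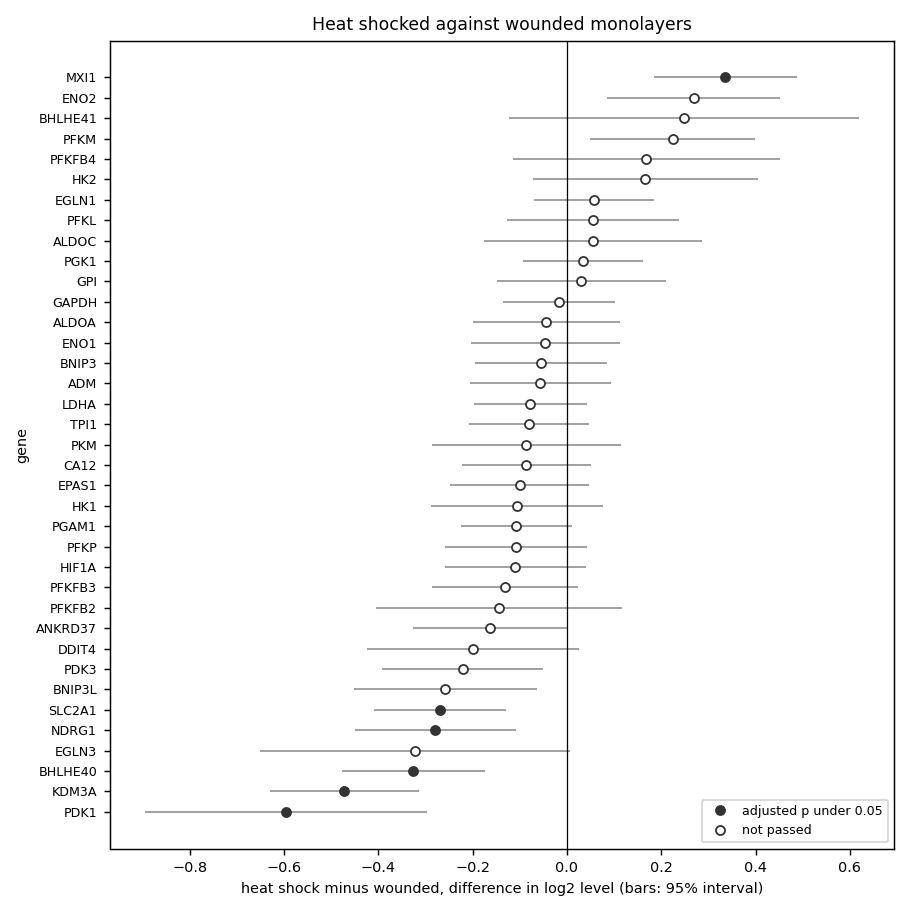
Heat shocked minus wounded monolayers, difference in log2 level for the 37 members in order of size (points; bars are 95% intervals; filled where the adjusted p is under 0.05). MXI1 is highest and PDK1 and KDM3A are lowest.

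The interaction compared both treatments together with the sum of the single ones, although the time after heat shock may differ between the groups. None of the 37 members passed by limma, 2 had an unadjusted p under 0.05 (KDM3A and PFKFB4), and 0.00552% of all genes, that is 1 gene, passed. Their 95% intervals were -0.51 to -0.07 for KDM3A and -0.86 to -0.06 for PFKFB4, and no other tool was run.

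Outside the members, the lists of neighbouring genes moved unequally. These lists, like the members, were chosen with earlier results of these data known, so their shares are descriptions and not tests. The 27 measured genes of a list of other hypoxia-induced genes had 16 calls after both treatments, 10 higher and 6 lower, or 59.3% against 23.1% of all genes. The largest was ANGPTL4, an inhibitor of lipoprotein lipase, with means of 6.53 ± 0.09 (SD, n = 3) in control, 7.77 ± 0.29 in heat shocked, 9.86 ± 0.34 in wounded and 10.56 ± 0.25 in doubly treated monolayers. JMJD6, an oxygenase, was higher by 1.37 ± 0.13 after both (adjusted p = 1.33e-05, limma) and by 1.35 ± 0.13 after heat shock, with 0.05 ± 0.13 after wounding (adjusted p = 0.93). The collagen prolyl hydroxylase subunit P4HA2 was likewise higher in both heat shocked groups (1.04 ± 0.09 after both, adjusted p = 4.47e-06; 1.10 ± 0.09 after heat shock) with 0.02 ± 0.09 after wounding. The LIM protein CSRP2 was higher by 1.05 ± 0.11 after both (adjusted p = 3.32e-05) and by 1.27 ± 0.11 after heat shock, with -0.01 ± 0.11 after wounding. After heat shock 13 of the 27 passed, 10 of them higher (48.1%, against 12.9% of all genes), and after wounding 3, all higher (11.1%, against 3.57%). With averaged probe sets the difference of JMJD6 after both was 0.84.

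Of 10 measured genes that bring pyruvate into the mitochondrial cycle 5 passed after both treatments, all lower (50%, against 23.1% of all genes, of which 14.4% lower), and 5 did not pass. The 10 had a median difference of -0.26 against -0.01 for all genes. DLAT and PDHX, core subunits of the pyruvate dehydrogenase complex, were lower by -0.44 ± 0.06 (adjusted p = 0.000172, limma) and -0.35 ± 0.06 (adjusted p = 0.000724). DLD, its lipoamide dehydrogenase, was lower by -0.28 ± 0.06 (adjusted p = 0.00604). PDK4, a kinase of the same family as PDK1 and PDK3, was lower by -0.65 ± 0.15 (adjusted p = 0.00811). The genes that passed thus included subunits of the complex and an inhibitor of it. After heat shock 2 of the 10 passed, both lower (20%, against 12.9% of all genes), and after wounding 0 passed by limma (3.57% of all genes), with 1 at an unadjusted p under 0.05.

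The other HIF regulators had 4 calls among 13 measured genes after both treatments, or 30.8% against 23.1% of all genes, a share near the background. The coactivator EP300 was lower (-0.36 ± 0.08, adjusted p = 0.00381, limma), while the asparagine hydroxylase HIF1AN (0.28 ± 0.07, adjusted p = 0.0114), VHL, which targets HIF alpha for degradation (0.24 ± 0.08, adjusted p = 0.0411), and the ubiquitin ligase SIAH1 (0.20 ± 0.07, adjusted p = 0.0477) were higher. The HIF1AN call was lost without replicate 3 of control (adjusted p = 0.0509). The VHL call was lost without any one control array, replicate 1 or 2 of the group given both, replicate 1 of the wounded or replicate 2 of the heat shocked group (adjusted p 0.0539 to 0.144). The SIAH1 call was lost without 10 of the 12 arrays in turn, all but replicate 3 of the heat shocked and replicate 1 of the doubly treated group (adjusted p 0.0501 to 0.133). With averaged probe sets the VHL and SIAH1 calls were lost as well (0.15 and 0.07, adjusted p = 0.122 and 0.541), as they were with only the control and doubly treated groups in the fit (adjusted p = 0.0563 and 0.1).

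Glucose carriers other than the members had 0 calls of 10 by limma after both treatments (23.1% of all genes passed), with 2 at an unadjusted p under 0.05, SLC2A8 (-0.22 ± 0.08, adjusted p = 0.0699) and SLC2A6 (-0.29 ± 0.12, adjusted p = 0.101). SLC2A8 passed without replicate 2 of the heat shocked group (adjusted p = 0.041), and SLC2A6 without replicate 3 of the group given both (-0.42, adjusted p = 0.0143). Among 16 other glycolytic and lactate genes 1 passed after both treatments (6.25%, against 23.1% of all genes), 3 after heat shock (18.8%, against 12.9%) and 1 after wounding (6.25%, against 3.57%). The gene that passed after both was LDHC, a testis form of lactate dehydrogenase (0.33 ± 0.11, adjusted p = 0.0439, limma). Its level of 2.73 in control was under the background level, and the call was lost without any one of 9 arrays, all but replicate 1 of control, replicate 3 of the heat shocked group and replicate 1 of the group given both (adjusted p 0.0526 to 0.158), and with cyclic loess (0.0689) or repeated quantile scaling (0.0645) or only these 2 groups in the fit (0.114).

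HKDC1, a gene of the hexokinase family in that list, was picked out after its values were seen. Its log2 level was 9.48 ± 0.02 (SD, n = 3) in control, 9.80 ± 0.02 in heat shocked, 9.20 ± 0.10 in wounded and 9.55 ± 0.06 in doubly treated monolayers, and the 4 groups did not overlap. HKDC1 was higher after heat shock than in control (0.33 ± 0.06, adjusted p = 0.00564, limma) and than after wounding (0.61 ± 0.06, 1.52-fold, adjusted p = 0.000113), and higher after both treatments than after wounding alone (0.35 ± 0.06, adjusted p = 0.00333). After both treatments its difference from control, 0.08 ± 0.06, did not pass (adjusted p = 0.459). It was lower after wounding than in control (-0.28 ± 0.06, adjusted p = 0.0354), a call lost without any one control array, replicate 1 or 2 of the heat shocked or replicate 1 or 2 of the wounded group (adjusted p 0.0514 to 0.169), with averaged probe sets (0.258) and with only these 2 groups in the fit (0.0719).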

How the data were processed

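RNA of A549 monolayers, 12 samples in 4 groups of 3, was measured on Affymetrix PrimeView arrays. The authors deposited 1 log2 level per probe set and array, and the submitters' processing notes name RMA and Affymetrix Expression Console, with no version given in the sources used here. That the scale is log2 was inferred from the span of the numbers. RMA sets all arrays to 1 distribution and can compress dim probe sets. Without scanner files neither background nor detection could be recomputed, and the number of arrays limits the precision.

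Of 49293 probe sets, 1 with a missing value was left out, 44987 had 1 gene symbol in the platform annotation, 1832 had several and 2473 were not listed; only those with 1 symbol were tested, and 44960 of them matched RefSeq. Each gene was read through its probe set with the highest mean, which gave 18132 genes. A model with 1 mean per group was fitted in R 4.3.3 by limma 3.58.1 with default moderation and 8 residual degrees of freedom. The main model had no replicate block. A call required an adjusted p (Benjamini-Hochberg, all genes) under 0.05, whatever the fold. Levels carry the SD and differences the SE.

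The members, lists and tests were chosen with earlier results of these data known. The text names called members, a set given whether called or not (HIF1A, EPAS1, SLC2A1, HK2, PFKFB3, LDHA, PDK1, CA9, BNIP3, EGLN3 and GAPDH), and up to 4 called genes of each of 8 other lists by size of difference after both treatments, or 2 by smallest p for a list without calls. Of 5 genes that check the treatments it names HSPA6 and EGR1. Other members named for a change under an alternative were chosen after their values were seen. The 23 alternatives covered scaling, filters on dim genes, averaging of probe sets, the samples in the fit, a model of spread against level, blocks and leaving out each array.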

Additional observations from a re-analysis of the deposited data

How the results depend on the processing

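No member's call changed direction under any of the 23 alternatives. The median difference of the members ranged from -0.07 to -0.02 after both treatments, from -0.06 to -0.01 after heat shock and from -0.02 to 0.02 after wounding. After both treatments 10 to 14 members passed against control (10 to 11 when single arrays were left out), and the interaction had 0 throughout. After heat shock 3 passed with cyclic loess scaling, 3 with only the groups of the comparison in the fit, up to 7 with the spread modelled against the level and robustly, and 2 to 6 when single arrays were left out. After wounding 7 passed among genes with a mean above the median, 2 with averaged probe sets, and 3 to 4 when single arrays were left out. In wounded monolayers heat shock changed 5 members with only those groups in the fit, 12 with the spread modelled against the level and robustly, and 5 to 8 when single arrays were left out. Both treatments against heat shock alone gave 5 members in either filter on dim genes, 6 with the spread modelled against the level and robustly, and 2 to 3 when single arrays were left out. Heat shock against wounding gave 4 with only those groups in the fit, 9 among genes with a mean above the median, and 2 to 8 when single arrays were left out. The share of all genes called ranged from 18.8% to 45.8% after both treatments over the alternatives that kept all arrays. No scaling moved the median of all genes by more than 0.03 on the log2 scale.

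Replicate numbers did not pair the arrays. Of 18 pairs of same-numbered arrays in different groups 6 correlated over 0.1 in their deviations (range -0.187 to 0.234, against -0.194 to 0.242 for other pairs), and 5 of 12 arrays correlated best with their own number. With a replicate block 4 members passed after heat shock, 4 after wounding, 10 after both, 8 for both against wounding, 3 for both against heat shock, 5 for heat shock against wounding and 0 for the interaction. Among members it ended the calls of PDK1 after heat shock (adjusted p = 0.0548, limma) and of NDRG1 for heat shock against wounding (0.0559), and outside them those of LDHC, VHL and SIAH1 after both treatments (0.0674, 0.0518 and 0.0549) and of HKDC1 after wounding (0.0513). The labels also carry a sample code whose meaning is not given. It was S2a for replicate 1, S2b for replicate 2 and S3a for replicate 3 in every group. Replicates 1 and 2 thus shared a prefix, and whether they are independent is not stated. Within groups their levels correlated at 0.996 to 0.9985, and those of the other pairs at 0.9951 to 0.9982. A block for that prefix, S2 against S3, gave 5, 4, 11, 8, 3, 7 and 0 in the same order of comparisons. The limits of the data are 3 arrays a group, levels close to background for HK2 and BHLHE41, and bright enzymes near the top of the scale.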

Other observations

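A list of genes of gluconeogenesis and of glycogen metabolism, which stores and releases glucose, had 4 calls among 17 measured genes after both treatments. Of these, 3 were higher and 1 lower (23.5%, against 23.1% of all genes). PPP1R3C and PPP1R3B, which bring protein phosphatase 1 to glycogen and so favour its synthesis, were higher by 0.87 ± 0.13 (adjusted p = 0.000372, limma) and 0.83 ± 0.14 (adjusted p = 0.000937). PPP1R3C stood at 7.04 ± 0.26 (SD, n = 3) in control, 7.10 ± 0.15 in heat shocked, 7.61 ± 0.05 in wounded and 7.91 ± 0.19 in doubly treated monolayers. After wounding alone it was higher by 0.56 ± 0.13 (adjusted p = 0.0323). The gluconeogenic enzyme PCK1 was higher after both treatments (0.82 ± 0.23, adjusted p = 0.0215) and after wounding (1.26 ± 0.23, adjusted p = 0.0085), at levels of 3.04 in control and 3.86 after both, under the background level. Its call after both was lost without replicate 1 or 3 of control or replicate 1 of the group given both (adjusted p 0.0582 to 0.0848), and with averaged probe sets it was 0.30 (0.0433). PGM1, which links glycogen to glucose 6-phosphate, was lower after both treatments (-0.41 ± 0.07, adjusted p = 0.000653) and after heat shock (-0.27 ± 0.07, adjusted p = 0.0163).

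The pentose phosphate pathway, which makes NADPH, had 2 of 8 measured genes lower and 0 higher after both treatments (25%, against 23.1% of all genes, of which 14.4% lower), a share near the background. H6PD, its form in the endoplasmic reticulum, was at 7.11 ± 0.16 (SD, n = 3) in control and 6.53 ± 0.23 after both (-0.58 ± 0.12, adjusted p = 0.00296, limma; -0.20 with averaged probe sets), and PGD was lower by -0.25 ± 0.07 (adjusted p = 0.0322). The PGD call was lost without any one array of control or of the group given both (adjusted p 0.052 to 0.102) and with cyclic loess scaling (0.0879). Of 15 tricarboxylic acid cycle genes 0 passed after both treatments by limma (23.1% of all genes passed), and 2 had an unadjusted p under 0.05. The nearest were IDH2 (-0.16 ± 0.07, adjusted p = 0.124) and SDHA (-0.17 ± 0.07, adjusted p = 0.133), and SDHA was lower after heat shock alone (-0.26 ± 0.07, adjusted p = 0.0399).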
